A study of Mus musculus with 6 samples.

Results

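The genes described here are 36 genes of microglia, the resident macrophages of the brain, measured by RNA-seq in adult brains with and without the chromatin protein BAHD1. They were taken from the deposited table of read counts by gene name, and fall into 11 genes of the homeostatic state, 8 genes known from disease-associated microglia and 17 genes shared by macrophages and other myeloid cells. These names matched 37 of the 53801 rows of the table, because Itgam is listed under 2 identifiers, of which the one with 3 counts in all was left out. All 36 genes were among the 23975 that reached 10 counts when the 6 mice were added up, and that were tested.

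Microglia survey the tissue through receptors such as CX3CR1, for the neuronal chemokine fractalkine, and P2RY12, for nucleotides released by damaged cells, and they depend on the growth factor receptor CSF1R for survival. Near amyloid plaques, dying neurons or damaged myelin, and with age, they lower this homeostatic programme and induce a disease-associated one, a switch that in part requires the lipid receptor TREM2 and its adaptor TYROBP. Complement component C1q, which marks synapses and debris for removal, is made in the brain mainly by microglia.

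One hemisphere of the brain was profiled for each of 3 Bahd1-WT mice (Bahd1+/+) and 3 Bahd1-KO mice (Bahd1-/-), all C57BL/6 and about 70 weeks old. Both genotypes came from matings of heterozygous mice, and the null allele is constitutive, so that microglia and all other cells of the mutants lack it from conception. The comparison addresses whether the lack of BAHD1, a protein of repressive chromatin complexes, changes transcription in the brain. Microglia are a minority of the cells in a hemisphere, and in such bulk RNA fewer cells of a type and less RNA per cell cannot be told apart.

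The libraries held 42297150 to 93557948 counts. For Bahd1 itself 1383, 844 and 1099 reads were counted in the Bahd1-WT libraries 1, 2 and 3, against 0, 14 and 1 in the Bahd1-KO libraries. The libraries also differed in how their counts depended on the base composition of transcripts. For each 10 points of GC content, the level of a gene relative to the other libraries changed by -0.31, -0.64 and -0.45 on the log2 scale in Bahd1-WT replicates 1, 2 and 3 and by -0.05, 1.08 and 0.38 in Bahd1-KO replicates 1, 2 and 3, with Bahd1-KO replicate 2 farthest from the others. The fold changes of all genes correlated with GC content across genes (Spearman's rho 0.76, genes not being independent replicates). The comparison was therefore also made with a GC and length offset, which subtracts from each library its own smooth trend along transcript GC content and transcript length. By construction, the offset also removes any difference between genotypes that runs with GC content, and it reduced rho over all genes to 0.07. The summed level of 7 lung genes was 107, 26.1 and 2.41 CPM (read counts scaled to the size of each library) in Bahd1-WT replicates 1, 2 and 3 and 0.71 to 1.59 CPM in Bahd1-KO mice, and its part in the levels of myeloid genes was not tested.

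The defining markers of microglia were all present. Per kilobase of transcript, the highest level in Bahd1-WT brains was that of Ctss, a lysosomal cysteine protease, at 90.7 ± 12.9 CPM per kb (SD, n = 3). P2ry12 followed at 28.0 ± 2.56 CPM per kb, then C1qa at 23.9 ± 4.22 and C1qb at 21.0 ± 4.54, and the steps between these means were smaller than the SD of C1qa. Fcer1g, Fcgr3 and Ly86 came next at 16.4 ± 0.52, 13.2 ± 1.51 and 12.6 ± 0.46, and the last pair did not differ beyond its spread. Cx3cr1, Csf1r and Gpr34 stood at 7.34 ± 1.61, 8.36 ± 2.07 and 8.01 ± 1.42 CPM per kb and did not differ beyond their spread. The lowest levels per kb were those of Itgax, the integrin CD11c, at 0.25 ± 0.11, and of the transcription factor gene Spi1, which encodes PU.1, at 0.39 ± 0.10. Disease-associated genes ranged from 0.25 CPM per kb for Itgax to 9.41 ± 1.71 for Tyrobp. In every library each of the 36 genes had more than the 3 counts taken as the floor, the lowest value being 14 counts for Cst7 in Bahd1-KO replicate 1.

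**Figure D1:**
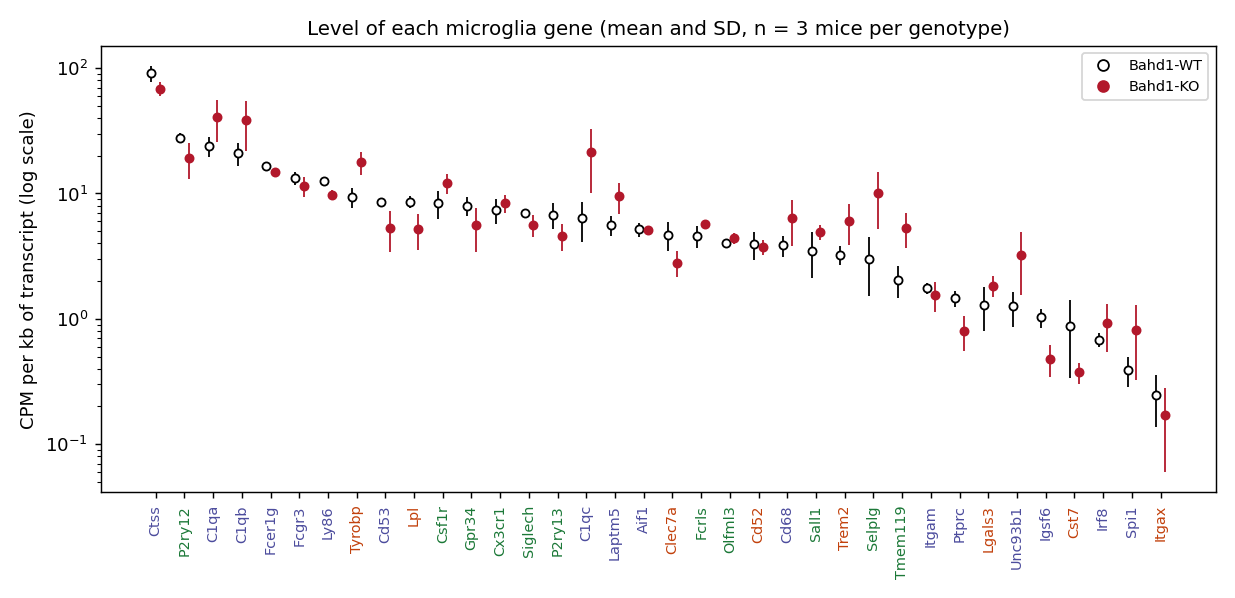
Level of each of the 36 microglia genes in CPM per kilobase of transcript (log axis), as mean and SD of 3 Bahd1-WT (open) and 3 Bahd1-KO (red) mice; gene names are coloured by class (green homeostatic, orange disease-associated, blue general myeloid). Levels in Bahd1-WT run from 90.7 for Ctss to 0.25 for Itgax.

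The summed level of the 36 genes was 584 ± 65.1 CPM in Bahd1-WT and 623 ± 36.3 CPM in Bahd1-KO brains (SD, n = 3), and the ranges of 534 to 657 and 584 to 656 CPM overlapped. No microglia gene passed an adjusted p-value of 0.05 in edgeR's quasi-likelihood test with Benjamini-Hochberg adjustment, where 0.00834% of all genes did. At an adjusted p under 0.1, 9 genes were higher in Bahd1-KO (14.7% of all genes) and 2 were lower (4.77% of all genes). At an unadjusted p under 0.05, 11 of the 36 genes (30.6%) were higher, against 19.9% of all genes, and 7 (19.4%) were lower, against 12% of all genes. DESeq2, the tool the study used, called by its Wald test 9 higher and 2 lower at an adjusted p under 0.05, against 17.7% and 3.56% of the genes to which it gave an adjusted p-value. All 3 Bahd1-KO mice lay above all 3 Bahd1-WT mice for 10 genes and below them for 8, against 20.6% and 19.3% of all genes. These counts depended on single mice. Without Bahd1-KO replicate 1, 16 of the 36 genes (44.4%) passed an adjusted p of 0.05 in edgeR, where 30% of all genes did, and when any other single mouse was left out none did. The 11 genes higher at an unadjusted p under 0.05 became 5 without Bahd1-WT replicate 2 and 6 without Bahd1-WT replicate 3, where 13.5% and 16% of all genes were higher. The 7 lower became 3 without Bahd1-WT replicate 1 or 2 and 4 without Bahd1-KO replicate 2, where 6.13%, 4.79% and 9.35% of all genes were lower.

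**Figure D2:**
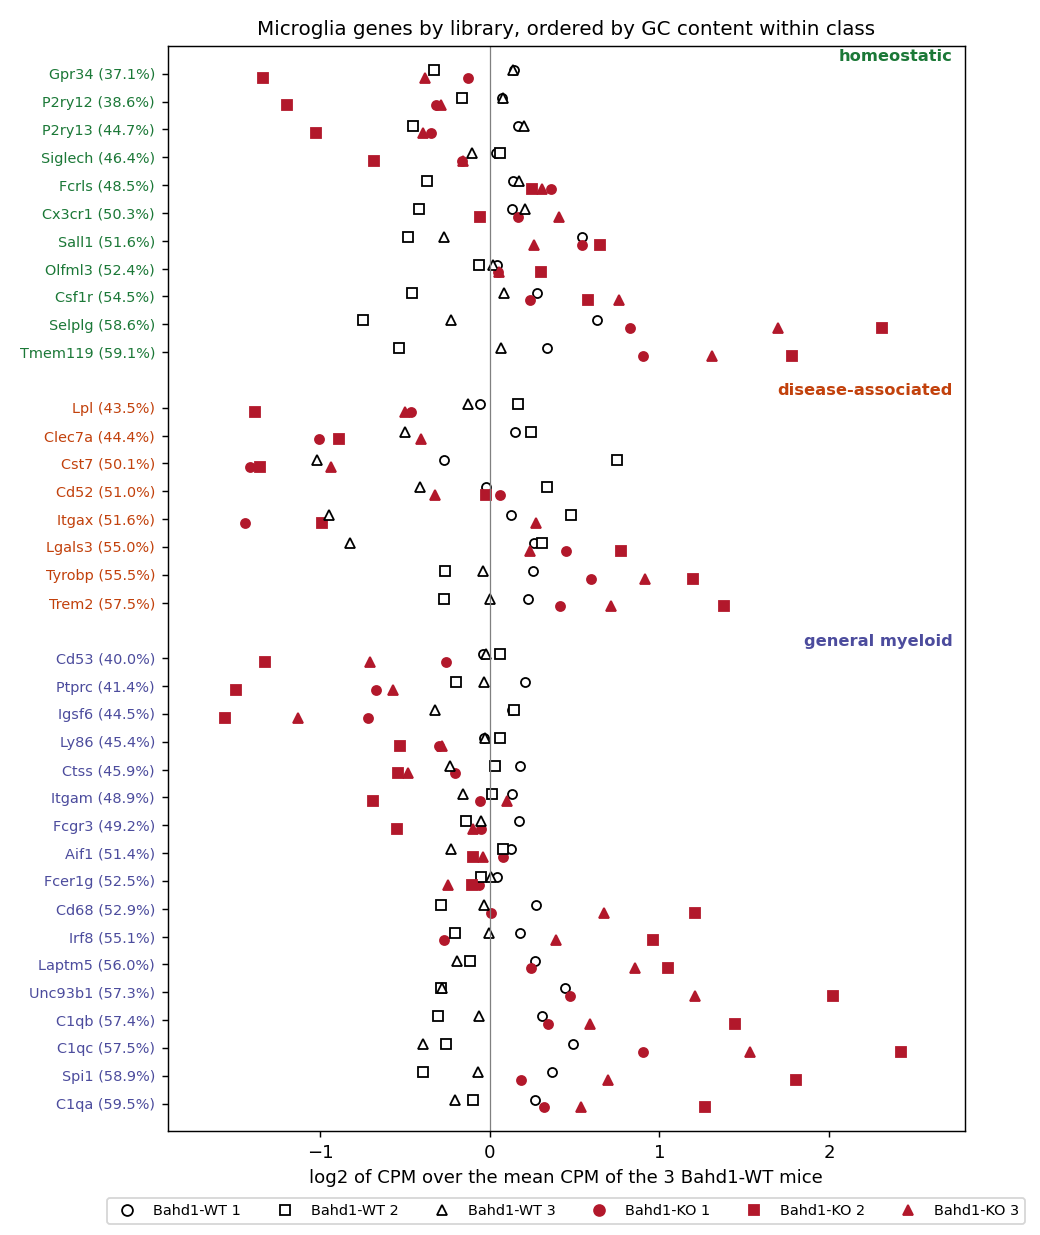
Level of each microglia gene in each library, as log2 of CPM over the mean CPM of the 3 Bahd1-WT mice (horizontal axis); open symbols are Bahd1-WT and red symbols Bahd1-KO, with circles, squares and triangles for replicates 1, 2 and 3. Genes are ordered within class by GC content (in brackets), and the red symbols, above all those of Bahd1-KO replicate 2, move from left to right of the line at 0 as GC content grows.

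The genes that were higher and those that were lower differed in GC content. Over the 36 genes, log2 fold changes correlated with GC content with a Spearman's rho of 0.90, given as a description since these genes share libraries and sequencing. Of the 23 genes above the median GC content of all genes tested (49.1%), 17 were higher in Bahd1-KO, and of the 13 at or below it, 1 was higher. With the GC and length offset, these numbers were 11 of 23 and 6 of 13, and rho was 0.17. The SD of the 36 log2 fold changes was 0.79 without and 0.38 with the offset, and the sign changed for 11 genes. With the offset, 3 genes were higher at an unadjusted p under 0.05 (18.5% of all genes) and 4 were lower (5.66% of all genes). Those higher were C1qc, Selplg and Fcrls, and those lower were C1qa, Fcer1g, Igsf6 and Cst7. With the offset no gene passed an adjusted p of 0.05 in edgeR (0.0209% of all genes). Without Bahd1-KO replicate 1, 5 of the 36 (13.9%) did, against 16.1% of all genes. At an adjusted p under 0.1 with all mice, the genes called were C1qc (7.74% of all genes higher) and C1qa (1.81% of all genes lower). All Bahd1-KO mice lay above all Bahd1-WT mice for Cx3cr1, Fcrls and C1qc, where 21.9% of all genes did, and below them for C1qa, Fcer1g and Igsf6, where 7.16% did. The offset moved the median log2 fold change of all genes from -0.06 to 0.12, so that a microglia gene at 0 with the offset lies 0.12 below the median gene.

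**Figure D3:**
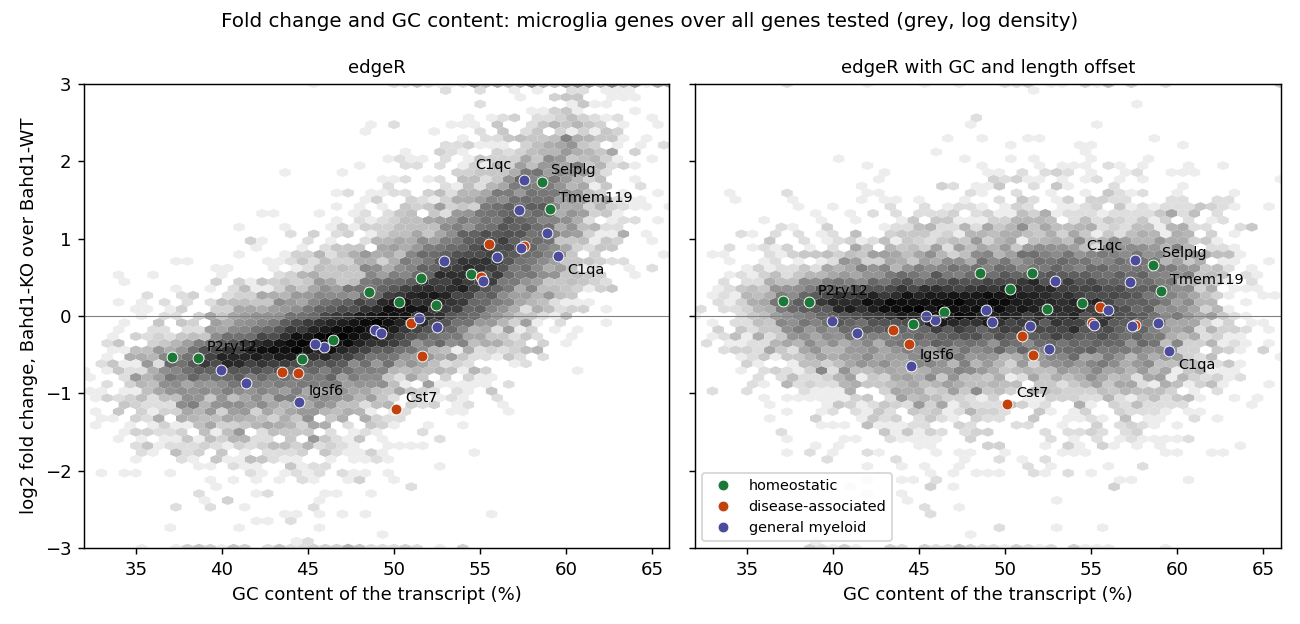
Log2 fold change of Bahd1-KO over Bahd1-WT against the GC content of the transcript, without (left) and with (right) the GC and length offset; coloured points are microglia genes by class, and grey shows the density of all genes tested on a log scale, with values beyond 3 drawn at 3. On the left the microglia genes follow the slope of all genes (rho 0.90), and on the right they lie level (rho 0.17), with Cst7 at -1.14 and C1qc at 0.72.

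Of the 11 homeostatic genes, 7 were higher and 4 were lower in Bahd1-KO, and the median of their log2 fold changes was 0.18, beside -0.06 for all genes. The largest values were those of Selplg and Tmem119, neighbours on chromosome 5 that lie 18019 bases apart and have the highest GC contents of the class (58.6% and 59.1%). Tmem119 (chr5:113793729-113800516, GRCm38), a membrane protein used to tell microglia from infiltrating macrophages, had 5.82, 3.17 and 4.81 CPM in Bahd1-WT replicates 1, 2 and 3 and 8.60, 15.8 and 11.4 CPM in Bahd1-KO replicates 1, 2 and 3. Every Bahd1-KO mouse lay above every Bahd1-WT mouse, with the highest value in Bahd1-KO replicate 2. Its log2 fold change was 1.37 (SE 0.31, adjusted p = 0.0634 from edgeR), and 0.32 (SE 0.18, adjusted p = 0.297) with the offset, where the groups overlapped. Selplg, a selectin ligand of leukocytes, had 8.64, 3.32 and 4.74 CPM in Bahd1-WT and 9.88, 27.7 and 18.1 CPM in Bahd1-KO mice, a log2 fold change of 1.74 (SE 0.44, adjusted p = 0.0635 from edgeR). With the offset it was 0.66 (SE 0.24, adjusted p = 0.14), and Bahd1-KO replicate 1 lay below Bahd1-WT replicate 1, at 9.91 against 10.8 CPM.

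The receptor genes with low GC content had the opposite sign. P2ry12 (chr3:59216272-59262871, GRCm38) had 68.9, 58.6 and 69.1 CPM in Bahd1-WT replicates 1, 2 and 3 and 52.6, 28.6 and 53.7 CPM in Bahd1-KO replicates 1, 2 and 3. All Bahd1-KO values were below all Bahd1-WT values, and the log2 fold change was -0.54 (SE 0.24, adjusted p = 0.164 from edgeR). Its neighbour P2ry13, another nucleotide receptor 5389 bases away, was at -0.56, Gpr34, a lysophosphatidylserine receptor, at -0.53, and Siglech, a sialic acid-binding lectin, at -0.32. With the offset P2ry12 was at 0.18 (SE 0.17), Gpr34 at 0.20, Siglech at 0.05 and P2ry13 at -0.10, and the 2 genotypes overlapped for each. Cx3cr1 had 36.2, 24.7 and 38.1 CPM in Bahd1-WT and 37.0, 31.7 and 43.7 CPM in Bahd1-KO mice, and Csf1r had 47.6, 28.6 and 41.7 CPM and 46.3, 58.6 and 66.6 CPM. Both ranges overlapped, with log2 fold changes of 0.18 (SE 0.22) and 0.54 (SE 0.23, adjusted p = 0.145 from edgeR). Both values depended on Bahd1-WT replicate 2, without which they were 0.01 and 0.35, and they reached 0.30 without Bahd1-WT replicate 3 for Cx3cr1 and 0.70 without Bahd1-KO replicate 1 for Csf1r. Part of the exons of Csf1r (15.1% of their bases) is shared with Hmgxb3 on the opposite strand. The study's methods state a strand-specific count, which would keep these apart only if the kit marked strand in the direction that was counted.

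With the offset, Fcrls and Cx3cr1 were the homeostatic genes whose genotypes did not overlap. Fcrls, the gene of an Fc receptor-like protein (chr3:87250758-87263738, GRCm38) had 11.5, 8.07 and 11.8 CPM in Bahd1-WT replicates 1, 2 and 3 and 13.4, 12.4 and 12.9 CPM in Bahd1-KO replicates 1, 2 and 3, so that the groups did not overlap and Bahd1-WT replicate 2 was lowest. The log2 fold change was 0.31 (SE 0.21, adjusted p = 0.323 from edgeR) and 0.56 (SE 0.18, adjusted p = 0.108) with the offset, and without Bahd1-WT replicate 2 these were 0.15 and 0.38. Sall1, a transcription factor that holds microglia in their homeostatic state, was at 0.49 and 0.55 without and with the offset, and its groups overlapped, with 26.9, 13.2 and 15.3 CPM in Bahd1-WT and 26.9, 29.0 and 22.1 CPM in Bahd1-KO mice. It was at 0.30 and 0.37 without Bahd1-WT replicate 2 and at 0.86 and 0.93 without Bahd1-WT replicate 1. Olfml3, a secreted glycoprotein, was at 0.14 and 0.09. With the offset 10 of the 11 homeostatic genes were above 0 and 8 were above the median of all genes. Without Bahd1-WT replicate 2, in which the class had its lowest level, 5 of 11 were above that median.

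The 8 disease-associated genes had values of both signs. Trem2, Tyrobp and Lgals3 were higher in Bahd1-KO and Cst7, Clec7a, Lpl, Itgax and Cd52 were lower, the class median being -0.30 on the log2 scale. Trem2 (chr17:48346401-48354147, GRCm38) had 4.14, 2.93 and 3.54 CPM in Bahd1-WT replicates 1, 2 and 3 and 4.71, 9.23 and 5.80 CPM in Bahd1-KO replicates 1, 2 and 3. Its adaptor Tyrobp had 6.34, 4.42 and 5.15 CPM in Bahd1-WT and 8.02, 12.2 and 10 CPM in Bahd1-KO mice. For both genes the Bahd1-KO mice were all above the Bahd1-WT mice, and Bahd1-KO replicate 2 was highest. Their log2 fold changes were 0.90 (SE 0.29) and 0.92 (SE 0.24), with adjusted p = 0.0862 and 0.0641 from edgeR. With the offset they were -0.11 (SE 0.15) and 0.12 (SE 0.17), and the genotypes overlapped. The value of Trem2 depended on the transcript used, and was 0.92 with an offset from its longest transcript, which retains introns. The counts of Trem2 per count of Tyrobp were 0.65, 0.66 and 0.69 in Bahd1-WT and 0.59, 0.76 and 0.58 in Bahd1-KO mice, again with overlap.

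Cst7, whose GC content of 50.1% is close to the median of all genes, kept its value under the offset. This gene of cystatin F, an inhibitor of lysosomal cysteine proteases (chr2:150570415-150578944, GRCm38, 31.6 Mb from Bahd1), was counted 65, 89 and 31 times in the Bahd1-WT mice 1, 2 and 3 and 14, 32 and 26 times in the Bahd1-KO mice, that is 0.71, 1.44 and 0.42 CPM against 0.32, 0.34 and 0.45 CPM. Bahd1-WT replicate 3 lay among the Bahd1-KO mice, and Bahd1-WT replicate 2 was highest. The log2 fold change was -1.20 (SE 0.45, adjusted p = 0.114 from edgeR) and -1.14 (SE 0.44, adjusted p = 0.155) with the offset, and leaving out 1 library at a time gave -1.53 to -0.63, with the smallest change without Bahd1-WT replicate 2. Clec7a, the beta-glucan receptor Dectin-1, was at -0.74 and at -0.36 with the offset, and Itgax at -0.52 and -0.50, both with overlap between the genotypes. With the offset Clec7a was at -0.08 without Bahd1-KO replicate 1 and at -0.63 without Bahd1-KO replicate 3. The value of Itgax rested on single mice, at -1.16 without Bahd1-KO replicate 3 and -0.22 without Bahd1-KO replicate 1 or Bahd1-WT replicate 2, and -1.09 to -0.20 with the offset. Lpl, lipoprotein lipase, had 33.8, 39.5 and 32.2 CPM in Bahd1-WT and 25.5, 13.5 and 24.8 CPM in Bahd1-KO mice, without overlap, and was at -0.73 (SE 0.25, adjusted p = 0.101 from edgeR) and at -0.18 with the offset. Lpl is made by other cells of the brain too. Lgals3, a galactose-binding lectin, was at 0.51 and -0.09, and Cd52, a small glycoprotein of leukocytes that shares 14.5% of its exon bases with Crybg2 on the opposite strand, at -0.09 and -0.26. With the offset 7 of the 8 genes were below 0.

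The difference between the medians of the homeostatic and the disease-associated genes was 0.49 on the log2 scale, and 0.42 with the offset. It rested on single mice: it was 0.16 without Bahd1-WT replicate 2 and 0.82 without Bahd1-WT replicate 3. For each library, the median deviation of the homeostatic genes from their Bahd1-WT means, less that of the disease-associated genes, was -0.05, -0.72 and 0.53 in Bahd1-WT replicates 1, 2 and 3 and 0.37, 0.69 and 0.31 in Bahd1-KO replicates 1, 2 and 3. The Bahd1-KO mice lay within the upper end of the Bahd1-WT range or just above it, and the genotypes overlapped. With the offset these values were 0.10, -0.68 and 0.58 against 0.35, 0.41 and 0.45, also with overlap. Bahd1-WT replicate 2 had the lowest homeostatic and the highest disease-associated levels among Bahd1-WT mice. Bahd1-WT replicate 3, with the lowest summed lung level of this genotype (2.41 CPM), was lowest among them for Itgax, Cst7, Clec7a, Lpl, Lgals3 and Cd52. For these genes Bahd1-WT replicate 2 was highest, while the highest lung level (107 CPM) was that of replicate 1. The part of lung transcripts in these values was not tested. Summed over the class, the disease-associated genes had 54.0, 58.4 and 46.7 CPM in Bahd1-WT and 45.2, 42.6 and 48.6 CPM in Bahd1-KO mice. The further lists of both kinds, described below, ran the other way. Other homeostatic genes had a median of -0.26 and other disease-associated genes one of 0.26. With the offset these medians were 0.12 and 0.34.

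**Figure D4:**
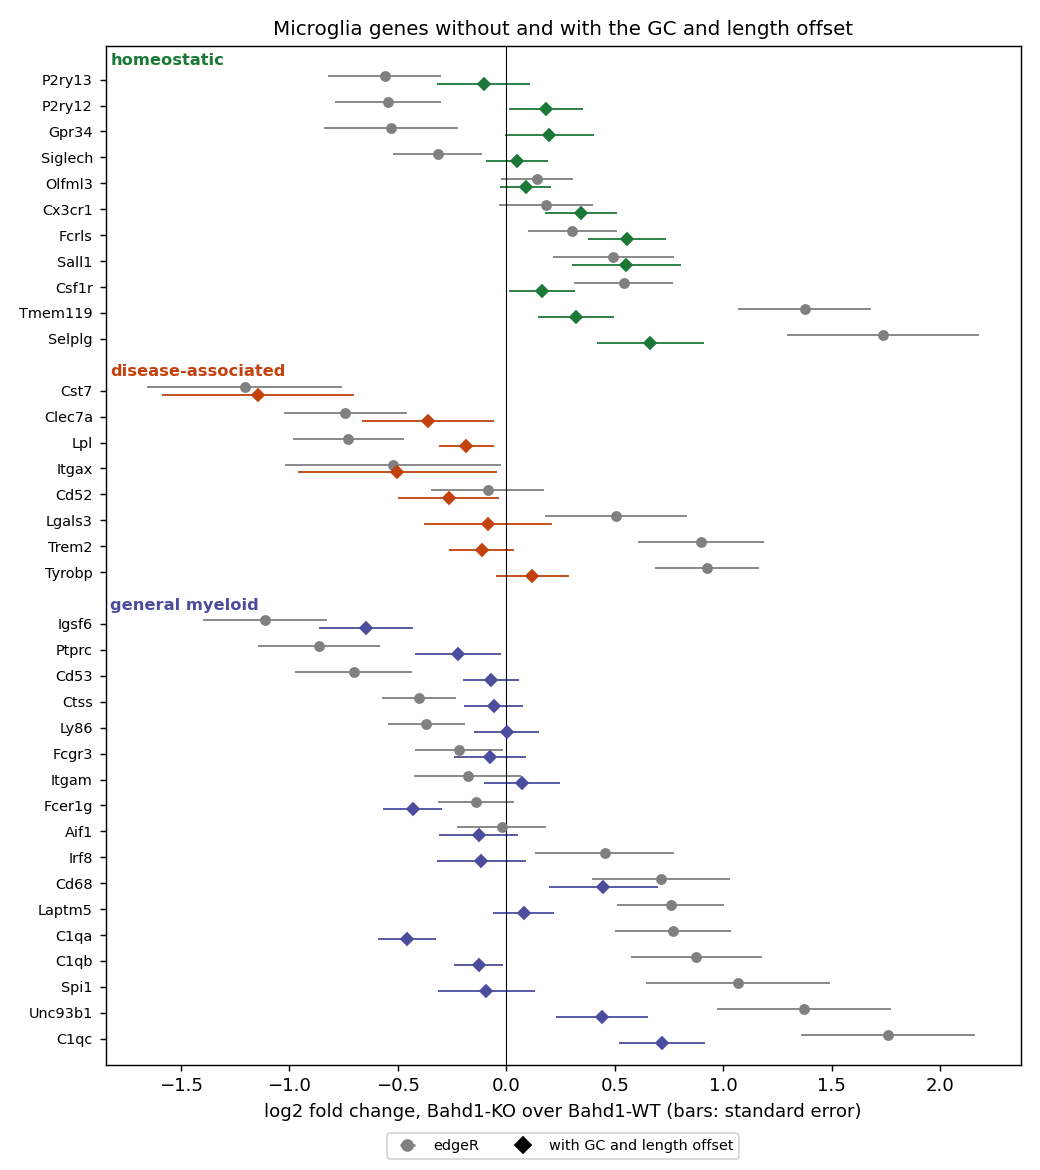
Log2 fold change of Bahd1-KO over Bahd1-WT with its standard error for each microglia gene, from edgeR without (grey circles) and with (coloured diamonds) the GC and length offset, grouped by class. The values draw together around 0 with the offset, and Cst7 (-1.20 and -1.14) and Itgax (-0.52 and -0.50) hardly differ between the fits.

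Among the 17 general myeloid genes, 8 were higher and 9 were lower in Bahd1-KO, with a median of -0.02. The complement genes C1qa, C1qb and C1qc encode the 3 chains of C1q and lie next to each other on chromosome 4, with 3616 bases between C1qb and C1qc and 2851 between C1qc and C1qa. C1qa had 29.8, 23.2 and 21.5 CPM in Bahd1-WT replicates 1, 2 and 3 and 30.9, 59.9 and 36.03 CPM in Bahd1-KO replicates 1, 2 and 3. C1qb had 28.2, 18.4 and 21.8 CPM and 28.9, 62.2 and 34.3 CPM in the same order. C1qc had 10.8, 6.40 and 5.84 CPM in Bahd1-WT and 14.4, 41.1 and 22.2 CPM in Bahd1-KO mice. For all 3 genes the genotypes did not overlap, Bahd1-KO replicate 1 lay closest to the Bahd1-WT mice and Bahd1-KO replicate 2 was highest. The log2 fold changes were 0.77 (SE 0.27) for C1qa, 0.88 (SE 0.30) for C1qb and 1.76 (SE 0.40) for C1qc, with adjusted p = 0.0991, 0.0978 and 0.0634 from edgeR.

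With the offset the values of the 3 chains differed in sign. C1qc was at 0.72 (SE 0.20, adjusted p = 0.0811 from edgeR) with all Bahd1-KO mice above all Bahd1-WT mice, C1qa at -0.46 (SE 0.13, adjusted p = 0.0881) with all below, and C1qb at -0.13 (SE 0.11). Over the fits that left out 1 library, C1qc stayed between 0.56 and 0.94 and C1qa between -0.55 and -0.35. The GC contents of C1qb and C1qc are alike (57.4% and 57.5%) and that of C1qa is 59.5%, so that the ratio of C1qc to C1qb hardly depends on the offset. This ratio of counts was 0.38, 0.35 and 0.27 in Bahd1-WT replicates 1, 2 and 3 and 0.50, 0.66 and 0.65 in Bahd1-KO replicates 1, 2 and 3, and with the offset 0.38, 0.35 and 0.27 against 0.50, 0.66 and 0.64. In each Bahd1-KO mouse there were thus more C1qc counts per C1qb count than in any Bahd1-WT mouse. The ratio of C1qc to C1qa was 0.36, 0.28 and 0.27 in Bahd1-WT and 0.46, 0.69 and 0.62 in Bahd1-KO mice, also without overlap. The ratio of C1qb to C1qa overlapped, with 0.95, 0.80 and 1.01 in Bahd1-WT and 0.93, 1.04 and 0.95 in Bahd1-KO mice, and did not overlap with the offset, with 0.898, 0.715 and 0.923 against 0.925, 1.27 and 1.01. These ratios were chosen after their values were seen and carry no test. For comparison, the ratio of Tmem119 to P2ry12, with GC contents of 59.1% and 38.6%, was 0.05 to 0.08 in Bahd1-WT and 0.16, 0.55 and 0.21 in Bahd1-KO mice, and with the offset 0.13 in each Bahd1-WT mouse against 0.18, 0.13 and 0.12.

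**Figure D5:**
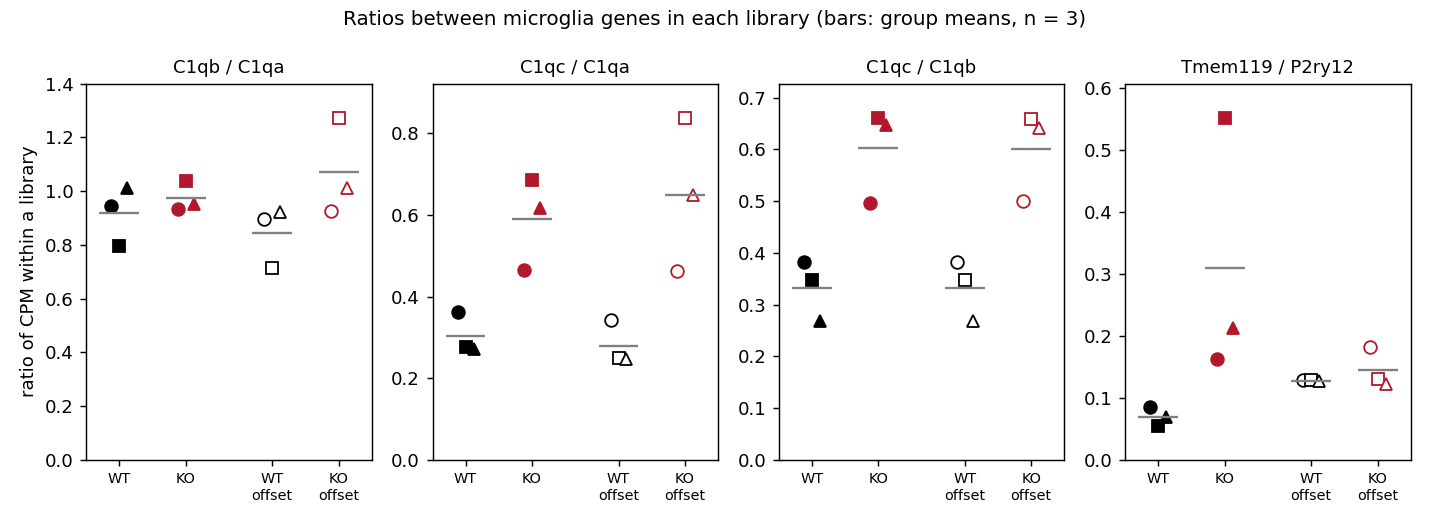
Ratios of counts between microglia genes in each library, without (filled) and with (open) the GC and length offset; black is Bahd1-WT and red Bahd1-KO, circles, squares and triangles are replicates 1, 2 and 3, and grey bars are means of 3 mice. C1qc per C1qb is 0.27 to 0.38 in Bahd1-WT and 0.50 to 0.66 in Bahd1-KO with or without the offset, while Tmem119 per P2ry12 separates the genotypes without it and overlaps with it.

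Unc93b1, which carries Toll-like receptors to endosomes, had 3.88, 2.33 and 2.34 CPM in Bahd1-WT and 3.95, 11.6 and 6.60 CPM in Bahd1-KO mice, without overlap, at a log2 fold change of 1.37 (SE 0.40, adjusted p = 0.0702 from edgeR) and 0.44 with the offset. Spi1 had 1.02, 0.60 and 0.75 CPM and 0.90, 2.75 and 1.28 CPM, and Irf8, its partner in microglial gene control, 2.20, 1.68 and 1.94 CPM and 1.61, 3.78 and 2.54 CPM. Both overlapped between genotypes, with log2 fold changes of 1.07 (SE 0.42) and 0.45 (SE 0.32) that were -0.09 and -0.11 with the offset. Laptm5 and Cd68, proteins of the lysosomal membrane, were at 0.76 and 0.71, and at 0.08 and 0.45 with the offset.

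Igsf6, an immunoglobulin superfamily gene of myeloid cells on chromosome 7, had the lowest log2 fold change of the general myeloid genes. It had 2.45, 2.46 and 1.79 CPM in Bahd1-WT replicates 1, 2 and 3 and 1.36, 0.76 and 1.02 CPM in Bahd1-KO replicates 1, 2 and 3, without overlap. The log2 fold change was -1.11 (SE 0.29, adjusted p = 0.0638 from edgeR) and -0.65 (SE 0.22, adjusted p = 0.115) with the offset, and -0.78 to -0.50 with the offset when 1 library was left out. Fcer1g, the signalling chain of Fc receptors, had 11.4, 10.7 and 11.1 CPM in Bahd1-WT and 10.6, 10.3 and 9.31 CPM in Bahd1-KO mice. Its values were close together yet did not overlap, and its log2 fold change was -0.14 (SE 0.18), and -0.43 (SE 0.13, adjusted p = 0.101) with the offset. Ptprc, the leukocyte phosphatase CD45, was at -0.86 (SE 0.28, adjusted p = 0.0869 from edgeR), Cd53, a tetraspanin, at -0.70, Ctss at -0.40 and Ly86, a partner of a Toll-like receptor homologue, at -0.37. With the offset these were -0.22, -0.07, -0.06 and 0.00, and the genotypes overlapped for all 4. Aif1, which encodes the microglial stain IBA1, was at -0.02 and -0.13, Fcgr3, an Fc receptor for IgG, at -0.22 and -0.07, and Itgam, the integrin CD11b, at -0.18 and 0.07. The level of Itgam is uncertain, since 68.7% of the bases of its exons are shared with an overlapping gene on the same strand.

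PU.1, the product of Spi1, is the factor that macrophage genes depend on most widely, and promoter sequence was available from RefSeq (GRCm38.p6) for 26 of the 36 genes. The PU.1 core letters AGGAAGT, searched on both strands of the 250 bases before the RefSeq transcription start, were found in 7 of 26 genes (26.9%), namely C1qb, C1qc, Cst7, Fcrls, P2ry12, Ptprc and Sall1, beside 8.80% of the 27025 genes in the table. The letters GGGCGG of the GC box were found in 8 of 26 (30.8%, beside 35.4%), and TATAAA in 5 of 26 (19.2%, beside 14.3%). A match is a description of the letters only. The promoters of C1qb, P2ry12 and Cst7 are shown because they stand for the 3 classes and hold the PU.1 letters, each 5′ to 3′ on the strand of its gene (minus, minus and plus), with the match in capitals (ACTTCCT is AGGAAGT read on the other strand). They cover chr4:136886201-136886450, chr3:59262986-59263235 and chr2:150570165-150570414.
C1qb: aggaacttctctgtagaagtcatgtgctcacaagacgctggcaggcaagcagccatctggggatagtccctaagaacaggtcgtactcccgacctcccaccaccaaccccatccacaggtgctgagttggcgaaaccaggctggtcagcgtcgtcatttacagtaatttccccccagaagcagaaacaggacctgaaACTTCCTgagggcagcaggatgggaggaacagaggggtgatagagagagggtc
P2ry12: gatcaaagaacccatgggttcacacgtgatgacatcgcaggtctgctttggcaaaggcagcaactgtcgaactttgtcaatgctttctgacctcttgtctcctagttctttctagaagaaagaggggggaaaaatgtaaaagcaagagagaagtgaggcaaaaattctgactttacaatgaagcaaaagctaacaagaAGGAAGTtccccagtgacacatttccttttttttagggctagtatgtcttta
Cst7: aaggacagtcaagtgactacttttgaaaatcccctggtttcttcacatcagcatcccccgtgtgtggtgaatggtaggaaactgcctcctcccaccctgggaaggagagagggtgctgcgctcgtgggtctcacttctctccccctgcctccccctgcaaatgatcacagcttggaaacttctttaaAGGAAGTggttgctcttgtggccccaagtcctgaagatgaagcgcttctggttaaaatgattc
In C1qb the match starts 53 bases before the RefSeq start, in P2ry12 52, in Cst7 63 and in C1qc 195 bases before it. Annotations differ on these starts: the RefSeq start of P2ry12 lies 114 bases upstream of the GENCODE start of the gene, from which the match is 166 bases away. The matches counted in Fcrls, Ptprc and Sall1 lie downstream of the GENCODE start of the gene. The genes with these letters had log2 fold changes of both signs, from 1.76 for C1qc to -1.20 for Cst7.

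Further genes of the same pathways were read from lists that, like the members, were drawn up with earlier results known. Their counts at an unadjusted p under 0.05 in edgeR stand beside 19.9% of all genes higher and 12% lower, and 18.5% and 5.66% with the offset. Of 16 genes around CSF1R and TREM2 signalling, 5 were higher and 1 was lower at an unadjusted p under 0.05 in edgeR, and with the offset 3 were higher and 2 lower. The lowest value was that of Runx1, a transcription factor, at -0.69 (SE 0.34) and -0.28 with the offset. The highest was that of Hcst, an adaptor of immune receptors, at 1.85 (SE 0.81, adjusted p = 0.155 from edgeR) from at most 0.19 CPM in any library. The ligands named here after their values were seen were Il34, the second ligand of CSF1R, which is made by neurons, and Cx3cl1, the neuronal ligand of CX3CR1. Il34 had 9.61, 6.22 and 8.39 CPM in Bahd1-WT replicates 1, 2 and 3 and 17.6, 33.7 and 20.8 CPM in Bahd1-KO replicates 1, 2 and 3, with a log2 fold change of 1.57 (SE 0.29, adjusted p = 0.0634 from edgeR) and 0.71 (SE 0.13, adjusted p = 0.0671) with the offset. Cx3cl1 had 154, 99.7 and 151 CPM in Bahd1-WT and 261, 524 and 324 CPM in Bahd1-KO mice, at 1.45 (SE 0.28, adjusted p = 0.0634 from edgeR) and 0.62 (SE 0.12, adjusted p = 0.0671). Both ligands separated the genotypes with and without the offset, with Bahd1-KO above, as did 21.9% and 20.6% of all genes. Tgfb1, from the same list, was at 1.01 and at -0.45 with the offset. Over the 16 genes the median was 0.37, and 0.07 with the offset. With the offset the receptor gene Cx3cr1, at 0.35 (SE 0.17), also separated the genotypes, and Csf1r, at 0.17 (SE 0.15), overlapped. Without Bahd1-WT replicate 2 these values were 0.17 and 0.03.

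Of 16 other homeostatic genes, 4 were higher and 1 was lower at an unadjusted p under 0.05 in edgeR (19.9% and 12% of all genes). With the offset 2 and 0 were (18.5% and 5.66% of all genes). They ran from Hpgds, a prostaglandin synthase, at -0.57 (0.05 with the offset) to Crybb1, a crystallin expressed in microglia, at 3.10 (SE 0.73, adjusted p = 0.0634 from edgeR) and 1.42 (SE 0.40, adjusted p = 0.0821) with the offset. Crybb1, with a GC content of 61.8%, was counted 25, 4 and 16 times in Bahd1-WT mice, against 22, 314 and 60 times in Bahd1-KO mice. Of 21 other genes induced in disease-associated microglia, several of which other brain cells also express, 4 were higher and 1 was lower at an unadjusted p under 0.05, and 8 and 0 with the offset, beside the same shares of all genes. Lyz2, a macrophage lysozyme, was lowest at -0.82 (SE 0.34, adjusted p = 0.139 from edgeR), with 37.3, 21.6 and 13.1 CPM in Bahd1-WT and 12.4, 13.2 and 15.1 CPM in Bahd1-KO mice, in the order of the lung genes in Bahd1-WT. Bahd1-WT replicate 3 lay among the Bahd1-KO mice for Lyz2, and Bahd1-WT replicate 1 was farthest above them. Apoe, the lipid carrier made by astrocytes and by disease-associated microglia, was highest, with 331, 181 and 203 CPM in Bahd1-WT and 482, 2106 and 649 CPM in Bahd1-KO mice. Its log2 fold change was 2.18 (SE 0.53, adjusted p = 0.0634 from edgeR) and 0.82 (SE 0.22, adjusted p = 0.0766) with the offset, and the genotypes did not overlap in either. Without Bahd1-KO replicate 2 these values were 1.25 and 0.51.

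Markers of other immune cells had low summed levels. The summed level of 9 markers of border-associated macrophages was 20.7 to 36.2 CPM in Bahd1-WT and 21.3 to 24.6 CPM in Bahd1-KO mice. For 7 tested markers of monocytes and neutrophils it was 7.34 to 8.76 and 2.14 to 7.32 CPM, and for 10 lymphocyte markers 8.07 to 9.31 and 7.33 to 9.08 CPM. The first and the last of these ranges overlapped, and the second did not, though its bounds of 7.34 and 7.32 CPM nearly met. Among border macrophage genes Cbr2, which lung also expresses, was lowest at -1.35 (SE 0.85), with 5.26, 0.92 and 0.35 CPM in Bahd1-WT and 0.57, 1.38 and 0.57 CPM in Bahd1-KO mice. Only Bahd1-WT replicate 1 lay above every Bahd1-KO mouse. Stab1, a scavenger receptor, was highest at 1.20 (SE 0.34, adjusted p = 0.0664 from edgeR) and 0.38 with the offset. The median of this list was -0.29, and -0.15 with the offset, where its values ran from -2.28 to 0.51. At an unadjusted p under 0.05 in edgeR 1 was higher and 1 lower (19.9% and 12% of all genes). The same counts held with the offset (18.5% and 5.66% of all genes). The part of these cells in the levels of the general myeloid genes was not tested.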

How the data were processed

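RNA-seq was made from brain hemispheres of 3 Bahd1-WT and 3 Bahd1-KO mice, grouped by the genotype given for each sample, and the p-values measure the spread between these mice. The authors deposited raw counts per gene, and the submitters' processing notes name cutadapt 1.11, STAR 2.5.0a and featureCounts 1.4.6-p3 with the build GRCm38. The study's methods state that reads on exons were counted with a strand-specific setting and name a further aligner without saying for which libraries, and the descriptions of the kit differ on whether it marked strand. The handling of multi-mapping reads is not given in the sources used here. No values of other samples are in the table (0 columns). Genes were matched to GENCODE annotation of GRCm38 for position, length and GC content, which were taken from the principal transcript.

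Genes that reached 10 counts over all mice were tested in R 4.3.3 with edgeR 4.0.16 (TMM scaling, quasi-likelihood F test, genotype as the only term) and Benjamini-Hochberg adjustment over all of them, at a threshold of 0.05. CPM values use the TMM-scaled library sizes. For the offset, log2 CPM of each library, over genes with a mean of at least 1 log2 CPM, was fitted on natural splines of GC content (5 degrees of freedom) and log length (3 degrees of freedom). Medians and counts over the microglia genes are descriptions, and with 3 against 3 mice an exact permutation test of a single value could not go below p = 0.1, so none is given. A floor of 3 counts equals 0.0315 to 0.0690 CPM, and floors cover counting error only. The scripts were tested on simulated data.

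Alternatives were DESeq2 1.42.0, other scaling factors and filters, the replicate number as a block, the offset, and leaving out each mouse. Leaving out each mouse under the offset, and an offset from the longest transcript, were added after the data were seen. Replicates of one genotype differed by 45.1 to 327 times the sampling variance (chi-square per degree of freedom), so no 2 libraries were alike within sampling noise. The replicate numbers do not pair the mice: deviations of same-numbered mice from their group means correlated across genes at -0.64, -0.66 and -0.14. All 36 genes are named. Of each further list, the genes with the lowest and the highest log2 fold change are named, and others only where said. The genes and lists were chosen with earlier results of these data known. Promoter sequences come from RefSeq.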

Additional observations from a re-analysis of the deposited data

How the results depend on the processing

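Over 23 alternative settings, the number of microglia genes with an adjusted p under 0.05 was 0 in edgeR and became 11 with DESeq2 with or without a prior on fold changes (30.6%, against 21.3% of all genes without the prior), 7 without the filter (19.4% against 11%), 4 with total counts (11.1% against 9.4%) and 0 to 16 when 1 mouse was left out, with or without the offset. The genes higher at an unadjusted p under 0.05 (11) became 3 with the offset, 4 with the offset from the longest transcript, 5 with the offset and the replicate block and 2 to 13 when 1 mouse was left out, where 18.5%, 17.5%, 12.5% and 10.7% to 25% of all genes were higher. The genes lower (7) became 4, 4, 4 and 3 to 8 in the same settings, where 5.66%, 5.86%, 4.43% and 3.85% to 18.6% of all genes were lower. The median of the general myeloid genes (-0.02) was -0.16 with upper-quartile scaling, the homeostatic median 0.054 and the disease-associated median -0.45, while the median of all genes moved from -0.06 to -0.20. With the replicate block alone 0, 9 and 6 genes were called, beside 0.0292%, 15.1% and 6.68% of all genes, and the homeostatic minus disease-associated difference was 0.54. Under the block no gene had an adjusted p under 0.1 in edgeR (lowest 0.122, and 0.140 with the offset), against the 11 without it and C1qc and C1qa with the offset, and no mouse correlated best with the mouse of its own number. Without 1 mouse the medians were 0.085 to 0.32 (homeostatic), -0.52 to -0.055 (disease-associated) and -0.12 to 0.045 (general myeloid), and the difference 0.16 to 0.82.

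Signs reversed mainly under the offset. P2ry12 was at 0.18 (0.11 from the longest transcript, 0.18 with the block), Siglech at 0.050 (0.040, 0.046), Gpr34 at 0.20 (0.12, 0.22), Lgals3 at -0.085 (-0.16, -0.012), Itgam at 0.073 (0.012, 0.066), C1qa at -0.46 (-0.49, -0.46), C1qb at -0.13 (-0.16, -0.12), Spi1 at -0.093 (-0.13, -0.097), Trem2 at -0.11 (-0.11 with the block), Irf8 at -0.11 (-0.14 with the block) and Ly86 at 0.0026. The longest transcripts of Trem2 and Selplg retain introns, and with the longest transcripts the values were 0.92 and 1.82, while Irf8 was at 0.36 and Clec7a at -0.069 in place of -0.36. Over the 12 fits without 1 mouse, with or without the offset, the genes whose sign reversed at least once ran from -0.69 to 0.32 (P2ry12), -0.40 to 0.13 (Siglech), -0.76 to 0.32 (Gpr34), -0.74 to 0.051 (P2ry13), -0.16 to 1.12 (Trem2), -0.37 to 0.68 (Lgals3), -0.46 to 0.11 (Cd52), -0.25 to 0.045 (Aif1), -0.34 to 0.20 (Itgam), -0.55 to 0.98 (C1qa), -0.19 to 1.12 (C1qb), -0.51 to 0.11 (Ctss), -0.41 to 0.16 (Ly86), -0.021 to 0.99 (Laptm5), -0.29 to 0.068 (Fcgr3), -0.23 to 1.39 (Spi1) and -0.28 to 0.74 (Irf8). Further values that kept their sign but moved by over 1.5 times ran, in the 6 such fits with the offset, from 0.19 to 0.43 (Tmem119), 0.0018 to 0.18 (Olfml3), 0.47 to 1.01 (Selplg), 0.0023 to 0.24 (Tyrobp), -0.29 to -0.10 (Lpl), -1.48 to -0.60 (Cst7), 0.24 to 0.72 (Cd68), -0.13 to -0.016 (Cd53) and -0.37 to -0.054 (Ptprc), and without it from 0.051 to 0.22 (Olfml3), 0.89 to 1.71 (Unc93b1), 0.38 to 1.00 (Cd68) and -0.17 to -0.077 (Fcer1g). Aif1 was also at 0.057 with total counts and Olfml3 at -0.0038 with upper-quartile scaling. The cause was not tested.

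With 3 mice a genotype and libraries whose GC dependence runs with genotype, a true change that runs with GC content and a library effect cannot be told apart. Cst7, Itgax and Spi1 rest on few counts.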

Other observations

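Markers of the other cells of the brain were read in the same way, from short lists, and their counts stand beside the 19.9% of all genes that were higher and the 12% that were lower at the same threshold, and beside 18.5% and 5.66% with the GC and length offset. Of 7 neuronal genes, 2 were higher and 1 was lower in Bahd1-KO at an unadjusted p under 0.05 in edgeR, from Map2, a microtubule protein of dendrites, at -0.56 to Rbfox3, a splicing factor of neurons, at 0.78, with a median of -0.11 and of 0.08 with the offset, where 2 were higher and 2 lower. Of 6 astrocyte genes, 3 were higher and 1 was lower, from the water channel Aqp4 at -0.47 to the folate enzyme Aldh1l1 at 1.03, with medians of 0.22 and 0.23, and with the offset 3 were higher, none was lower and all 6 were above 0. Of 6 oligodendrocyte genes, 3 were higher and none was lower, from Mobp at -0.21 to Mag at 1.66, both of myelin, with medians of 0.31 and 0.05, and with the offset 2 were higher and 1 lower. Of 5 endothelial genes, 1 was higher and none was lower, from the thyroid hormone transporter Slco1c1 at -0.07 to the tight junction gene Cldn5 at 2.56, with medians of 0.29 and 0.46, and with the offset 3 were higher, none was lower and all 5 were above 0.

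Among immune cells outside the brain, the 7 tested monocyte and neutrophil genes ran from the alarmin S100a8 at -1.28 to the antimicrobial peptide gene Camp at 1.59, with medians of -0.63 and -0.34, and 1 was higher and 2 were lower at that threshold, against none and 1 with the offset. The 10 lymphocyte genes ran from the B cell gene Ms4a1 at -1.39 to the cytotoxic cell gene Nkg7 at 0.60, with medians of -0.05 and -0.11 and none past an unadjusted p of 0.05 in either direction, with or without the offset. Of the 7 lung genes, 6 were lower at that threshold, with or without the offset, down to the surfactant protein gene Sftpa1 at -9.48, which had 20.8, 4.39 and 0.22 CPM in Bahd1-WT replicates 1, 2 and 3 and at most 0.02 CPM in Bahd1-KO mice. Marco, a scavenger receptor of lung macrophages, was the exception at 0.80.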
